A study of Homo sapiens with 10 samples.

Results

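The FAM83 family is a set of 8 human genes, FAM83A to FAM83H, found here by gene symbol: all 8 are listed among the 60558 genes measured. They were followed in PC3 cells, a wild-type-labelled prostate cancer line that was derived from a bone metastasis, in 10 RNA sequencing libraries. In 5 libraries the cells had spent 3 days with human bone marrow adipocytes (cocultivated), and in 5 they had not (non-cocultivated). The labels carry 5 batch numbers, each shared by 1 library of either group, and libraries are named here by group and that number. The labels do not say how the cancer cells were separated from the adipocytes, or whether libraries of a group are separate cultures, so the error given here is the spread between libraries and may be technical. Both cell types are human, so reads cannot be assigned to one of them by species.

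FAM83 proteins share an N-terminal domain that resembles the catalytic fold of phospholipase D but is not known to act as one. Through this domain they bind isoforms of casein kinase 1 and carry the kinase to different places in the cell, while the rest of each protein is unlike that of its relatives. FAM83A and FAM83B are known as transforming genes of epithelial cells that act in signalling from the EGF receptor and through PI3 kinase. FAM83D brings casein kinase 1 alpha to the mitotic spindle, FAM83G acts in BMP and Wnt signalling, and FAM83H binds keratin filaments and is mutated in a hereditary enamel defect. The family was selected on the difference of FAM83A between the cocultivated and non-cocultivated libraries used here. The values of its members with and without coculture are therefore given as a description, with no p-value, and nothing rests on which side of a threshold they fall.

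Library totals lay between 39074949 and 51515712 expected counts. Levels are given as CPM, counts scaled to a common library size, or between genes as TPM, which also corrects for transcript length. Where a gene had no read, up to 3 counts remain possible, or 0.0582 to 0.0768 CPM depending on the library. That limit, like the Poisson intervals, covers counting error only. Of the 15690 genes with enough counts for a test, 33.6% passed an adjusted p of 0.05 in edgeR's quasi-likelihood test (QL, Benjamini-Hochberg adjustment over all tested genes). Higher after coculture were 17.9%, and lower were 15.8%. With library totals in place of TMM scaling, 2216 genes were higher and 3555 lower, against 2801 and 2478. On the first principal component, with 48.8% of the variance, cocultivated replicate 5 lay farthest out, at 40.1, and the other cocultivated libraries reached 28.8. On the second, with 11.2%, both batch 1 libraries stood apart, at 20.2 and 29.3.

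PC3 cells expressed the family very unevenly. FAM83D was the most abundant member at 57.04 ± 2.89 TPM (mean ± SD, n = 5) without coculture, and FAM83H followed at 13.8 ± 1.04 TPM. FAM83A, at 0.162 ± 0.0804 TPM, was close to the remaining 5, the highest of which lay between 0.06 and 0.31 TPM in each library. The order FAM83D, FAM83H, FAM83A and then all others held in 4 of 5 non-cocultivated and in 5 of 5 cocultivated libraries. The exception was non-cocultivated replicate 3, where FAM83A was at 0.06 TPM and FAM83E at 0.31. Among the tested genes, 83.2% had a lower mean TPM than FAM83D without coculture, 55.3% a lower one than FAM83H and 2.43% a lower one than FAM83A.

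**Figure D1:**
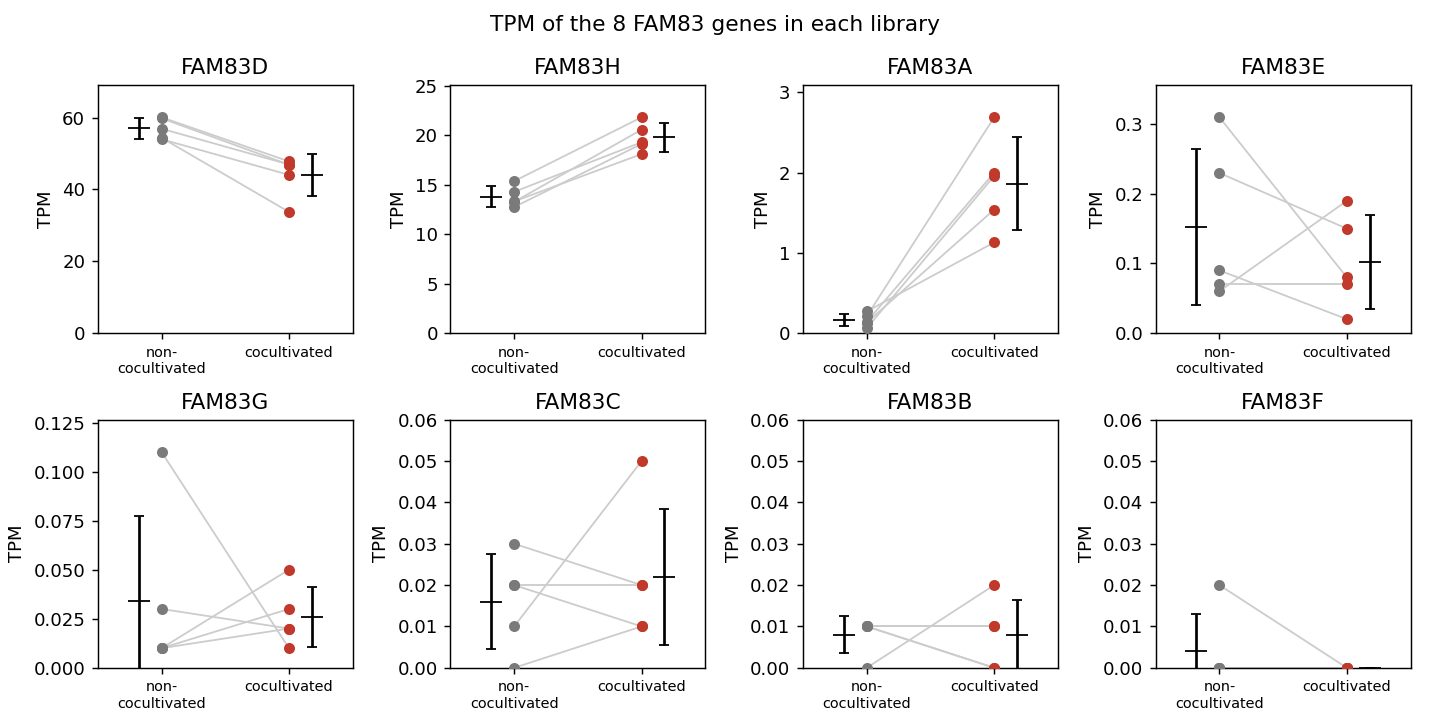
TPM of each of the 8 genes (vertical axes, each starting at 0 and on its own scale) in the 5 non-cocultivated (grey) and 5 cocultivated (red) libraries; grey lines join libraries of a batch, and black bars are mean ± SD, cut off at 0. FAM83D lies between 53.98 and 60.09 TPM without and 33.74 and 47.81 with coculture, FAM83A moves from at most 0.27 to at least 1.13, and the groups overlap for FAM83E, FAM83G, FAM83C, FAM83B and FAM83F.

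After coculture FAM83A and FAM83H were higher and FAM83D was lower, each in all 5 batches. Of the 8 members, 3 had enough counts to enter the fit, and all 3 fell past its threshold, where 33.6% of all genes in the fit did. For each of the 3 the CPM of the groups did not overlap, which was true of 25.4% of all tested genes (13.7% higher and 11.7% lower after coculture). FAM83A passed the filter on low counts through the cocultivated libraries, where it is high. Because the change of FAM83A led to the choice of the family, nothing is read from these counts. In bulk RNA, a change in the share of cells that express a gene cannot be told apart from a change in the amount per cell.

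FAM83A (ENSG00000147689), an oncogenic adaptor in EGF receptor signalling, had the steepest change. Without coculture it stood at 0.13, 0.14, 0.06, 0.27 and 0.21 TPM in replicates 1 to 5. With coculture it stood at 1.54, 2.00, 1.96, 1.13 and 2.69 TPM. The lowest cocultivated library was thus well above the highest one without coculture. In reads, this is 9 to 20 expected counts per library against 132 to 305. On the CPM scale with TMM-scaled library sizes its level rose from 0.317 ± 0.0826 to 4.27 ± 1.48, a log2 fold change of 3.74 ± 0.26 (SE, n = 5 and 5) or 13.3-fold. Of all tested genes, 6 had a higher log2 fold change. Even so FAM83A remained a gene of low abundance, since 25.2% of the tested genes had a lower mean TPM after coculture.

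The spread of FAM83A between libraries can be set beside counting error. Without coculture its coefficient of variation was 26.03%, against 25.8% that counting alone gives at a mean of 15 counts. With coculture it was 34.7%, against 7.37% from counting at a mean of 184 counts. A difference in spread between the groups was not tested. Cocultivated replicate 5 was the highest at 6.72 CPM, and cocultivated replicate 4 the lowest at 2.93. Without coculture, replicate 5 was also the highest, at 0.429 CPM. Within batches, the log2 difference of FAM83A was 3.44, 3.48, 3.99, 2.98 and 3.84 in batches 1 to 5. The size of its change depends on the constant added to a low level: on the log2(TPM + 1) scale it was 1.28 and on the log2(TPM + 0.1) scale 2.91.

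FAM83H (ENSG00000180921), the keratin-associated member, rose by a smaller step from a much higher level. Its levels were 14.29, 12.75, 13.27, 13.32 and 15.37 TPM in the non-cocultivated libraries. In the cocultivated ones they were 19.31, 19.13, 20.58, 18.11 and 21.83 TPM. Every cocultivated library exceeded every non-cocultivated one, and replicate 5 was the highest of both groups. On the CPM scale FAM83H went from 52.4 ± 3.93 to 78.3 ± 8.18, a log2 fold change of 0.58 ± 0.07, or 1.49-fold. The differences within batches were close together, at 0.43, 0.65, 0.65, 0.51 and 0.64 on the log2 scale.

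FAM83D (ENSG00000101447), the spindle member, was the only tested one to fall. Without coculture it held 53.98, 56.91, 60.09, 59.82 and 54.39 TPM. With coculture it held 44.06, 46.94, 47.81, 46.89 and 33.74 TPM. The groups did not overlap, and in TPM cocultivated replicate 5 lay well under the other 4. In CPM this library was nearer to them, at 59.1 against 66.3 in the next lowest. The CPM of FAM83D went from 88.1 ± 6.27 to 71.1 ± 8.21, a log2 fold change of -0.31 ± 0.08, which is 19.2% lower. The log2 differences within batches were -0.26, -0.20, -0.31, -0.28 and -0.52.

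**Figure D2:**
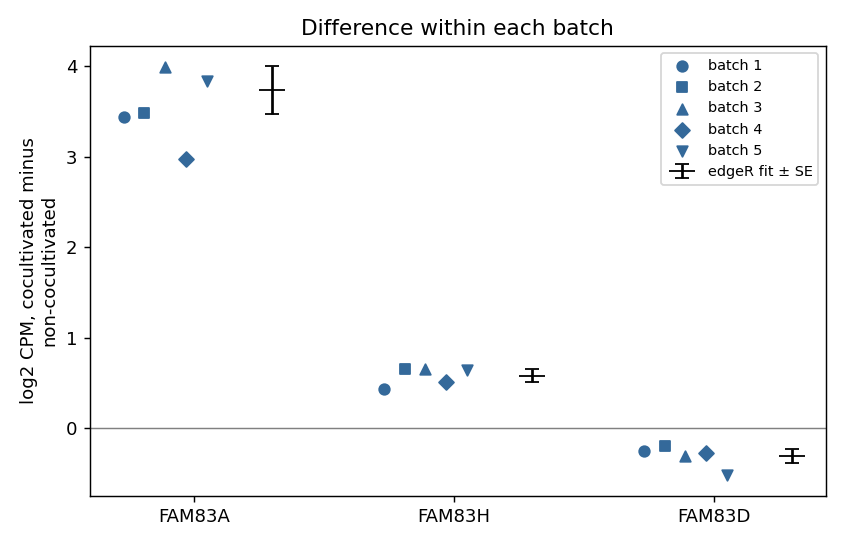
Log2 CPM of the cocultivated minus the non-cocultivated library of the same batch (vertical axis) for FAM83A, FAM83H and FAM83D; each symbol is 1 batch, and the black bar is the log2 fold change of the edgeR fit over all 10 libraries ± SE. FAM83A lies between 2.98 and 3.99, FAM83H between 0.43 and 0.65, and FAM83D between -0.52 and -0.20.

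Cocultivated replicate 5, the library farthest out on the first component, held the highest FAM83A, the highest FAM83H and the lowest FAM83D of its group. Without that library the log2 fold changes were 3.52 ± 0.19 for FAM83A, 0.52 ± 0.05 for FAM83H and -0.24 ± 0.06 for FAM83D, with the groups on the same sides. With the batch number as a block the values were 3.72, 0.58 and -0.31.

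The make-up of the family differed between the groups. Summed over the 8 members, the level was 71.2 ± 2.39 TPM without coculture and 65.7 ± 4.57 TPM with it, and these ranges overlapped (68.49 to 73.78 and 58.36 to 70.5). The share of FAM83D in this sum was 80.1% ± 1.80 without and 66.6% ± 5.04 with coculture. That of FAM83H was 19.4% ± 1.84 and 30.3% ± 4.07, and that of FAM83A 0.227% ± 0.110 and 2.88% ± 1.08. The ratio of FAM83D to FAM83H within a library, which needs no scaling between libraries, ranged from 3.54 to 4.53 without and from 1.55 to 2.59 with coculture.

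The other 5 members were at or near the limit of detection in both groups, and no difference was detected at this depth. FAM83E (ENSG00000105523), a little studied member, had 29 counts summed over the 5 non-cocultivated libraries and 25 over the cocultivated ones. This corresponds to 0.125 CPM (exact 95% Poisson interval 0.0840 to 0.180) and 0.114 CPM (0.0738 to 0.168). FAM83G (ENSG00000188522), the partner of the BMP effector SMAD1, had 16 and 20 counts, or 0.0692 CPM (0.0396 to 0.112) and 0.0913 CPM (0.0558 to 0.141). The intervals of the groups overlap widely for both genes.

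FAM83C (ENSG00000125998) had 8 and 10 counts in the non-cocultivated and the cocultivated group. FAM83B (ENSG00000168143), which like FAM83A transforms epithelial cells, had 7.23 and 8.69 expected counts. No library without coculture exceeded 3 counts of FAM83B, and with coculture the highest held 3.99. FAM83F (ENSG00000133477), which is known to anchor casein kinase 1 at membranes, was at 0 in 3 libraries of either group and never exceeded 2 counts. In a fit without a filter on low counts, the log2 fold changes of these 5 genes lay between -0.37 (FAM83F, SE 1.14) and 0.43 (FAM83C, SE 0.72), each smaller than its SE.

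The tables give for each gene a length averaged over its transcripts by their estimated abundance, which is a readout apart from the count. For FAM83H it was 5523 to 5633 bases without and 5462 to 5546 bases with coculture, so the ranges overlapped. For FAM83D, with 2 transcripts listed, it was 2371 to 2372 and 2372 to 2376 bases. For FAM83A, with 8 transcripts listed, it ran from 1885 to 5393 bases without coculture, where few reads inform it, and from 3074 to 3576 bases with it. The last of these ranges lies inside the first.

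Antisense transcripts and sequence shared with other genes could move a count, so both were looked up in the GENCODE v29 annotation. FAM83A-AS1 was at 0 counts in all 5 non-cocultivated libraries and at 1, 1, 1, 0 and 4 counts in cocultivated replicates 1 to 5, so only replicate 5 exceeded 3 counts. Another antisense RNA (ENSG00000253258) overlaps 389 of the 6317 exonic bases of FAM83A, and it held at most 1.12 expected counts in a library. FAM83C-AS1 was at 0 in all 10 libraries. IQANK1, which lies next to FAM83H and was formerly named as its antisense gene, had 1.16 ± 0.187 CPM without and 1.02 ± 0.0990 CPM with coculture, a log2 fold change of -0.18 ± 0.14 that did not pass (edgeR QL adjusted p 0.358). FAM83D and FAM83H shared none of their 75-base windows with another gene, and FAM83A shared 5.33%, all with 2 annotations that overlap it on the opposite strand. The annotation behind the counts differs from GENCODE v29. It lists FAM83B at 6244 bases, against 3167, and 3 transcripts of FAM83H, against 2, so the overlaps in it may differ.

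FAM83A and FAM83H lie on the same chromosome, as do FAM83C and FAM83D (RefSeq, GRCh38.p14), and the nearest tested protein-coding genes were read out of the same fit. Over the 18 neighbours of the 3 tested members, 3 were higher and 3 lower, where 17.9% and 15.8% of all tested genes were. Of the 3 on each side of FAM83A, 2 were higher and none lower. These were the transcriptional repressor ZHX2 (0.41 ± 0.07 on the log2 scale, adjusted p 3.86e-04 by edgeR QL) and DERL1, a channel for the removal of misfolded proteins (0.28 ± 0.06, adjusted p 0.00297). TBC1D31, which is adjacent, was at -0.03 ± 0.06 (adjusted p 0.718). Of the 6 around FAM83H, 1 passed and was lower, the proline synthesis enzyme PYCR3 (-0.25 ± 0.05, adjusted p 0.00167). Around FAM83D, the transglutaminase TGM2 was higher (1.71 ± 0.13, adjusted p 5.81e-07). The topoisomerase TOP1 (-0.45 ± 0.05, adjusted p 3.58e-05) and the phospholipase PLCG1 (-0.25 ± 0.05, adjusted p 0.00250) were lower.

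**Figure D3:**
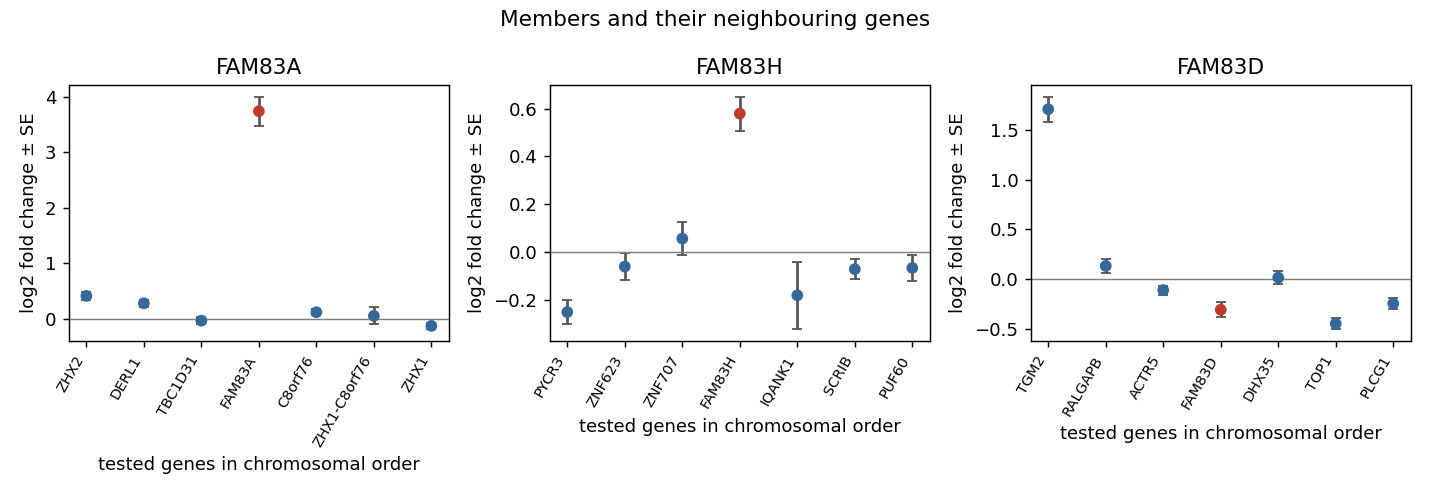
Log2 fold change ± SE (vertical axes, on different scales) of FAM83A, FAM83H and FAM83D (red) and of the 3 tested protein-coding genes on each side (blue), in chromosomal order. The neighbours of FAM83A lie between -0.13 and 0.41, those of FAM83H between -0.25 and 0.06, and those of FAM83D between -0.45 and 1.71.

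A set of 5 genes followed FAM83A most closely over the 10 libraries, by the root mean square difference of log2 CPM centred on each gene's mean, out of 12976 genes with a mean of at least 1 CPM. They were the p53 target PHLDA3 (difference 0.27), the lipid hydrolase AADAC (0.28), the cytokine IL1B (0.33), haem oxygenase HMOX1 (0.36) and the hair keratin KRT81 (0.37). Hair keratin genes resemble each other in sequence, so the level of KRT81 is uncertain. IL1B, for example, ran from 18.9 to 28.0 CPM without coculture and from 146 to 280 with it. Likeness here is mostly the difference between the groups, which FAM83A was chosen for. The spread within groups also entered the choice of these genes, so the replicate 5 libraries being the highest of both groups for FAM83A and all 5 is a description.

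**Figure D4:**
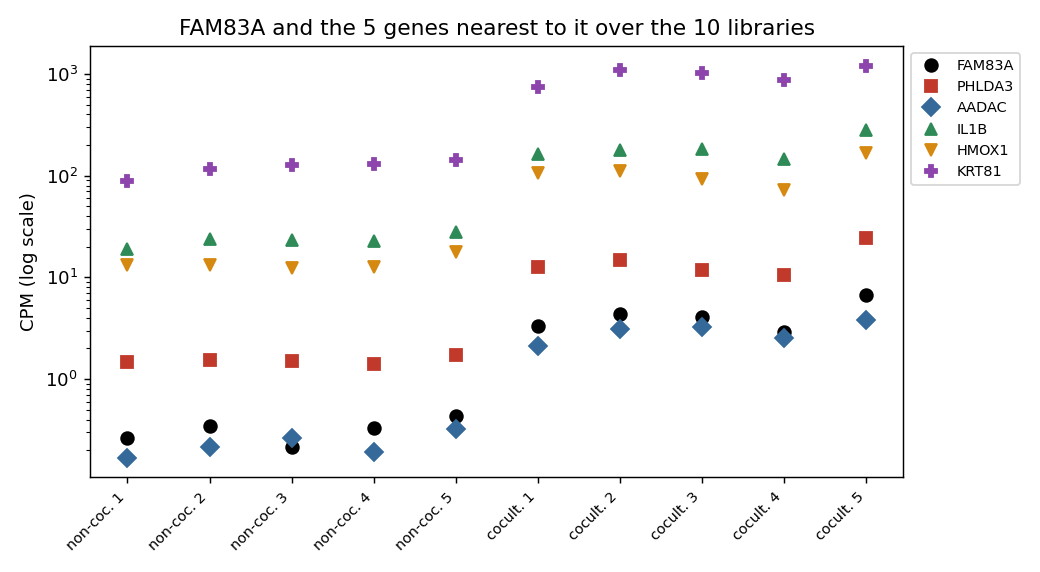
CPM (log axis) of FAM83A and of the 5 genes nearest to it in each of the 10 libraries (horizontal axis, non-cocultivated replicates 1 to 5 and then cocultivated replicates 1 to 5). All 6 genes are higher in every cocultivated library than in any other, and replicate 5 is the highest of each group.

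Of 6 tested isoforms of casein kinase 1, the common partner of the family, 2 were higher and none lower. Over all tested genes, 17.9% were higher and 15.8% lower. The median log2 fold change of the isoforms was 0.04, beside -0.01 over all tested genes. CSNK1A1, the isoform that FAM83D and FAM83G bind, went from 644 ± 17.7 to 718 ± 26.1 CPM (0.16 ± 0.04, edgeR QL adjusted p 0.00997), and CSNK1E from 65.1 ± 2.76 to 72.8 ± 2.58 CPM (0.16 ± 0.04, adjusted p 0.00789). From TPM values neither passed, with log2 differences of 0.09 and 0.03, and with library totals or without the filter on low counts 1 of the 2 passed. Of the phospholipase D genes, whose fold the FAM83 domain resembles, 4 were tested and 0 passed by edgeR QL, by the DESeq2 Wald test or by limma-voom. At an unadjusted edgeR p under 0.05 there was 1, PLD3 (0.17 ± 0.07, adjusted p 0.0659), and PLD1 was at -0.20 ± 0.11 (adjusted p 0.196). With the batch as a block PLD3 passed as higher (adjusted p 0.0154) and PLD1 as lower (0.0434), and PLD3 also passed without cocultivated replicate 3 (0.0295).

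Of 20 tested receptor and kinase genes of the routes through which FAM83A and FAM83B act, 3 were higher, 3 lower and 14 did not pass, with a median log2 fold change of 0.04. These shares are near those over all tested genes, 17.9% higher and 15.8% lower. The kinase BRAF went from 31.7 ± 2.37 to 38.7 ± 2.90 CPM (0.29 ± 0.06, edgeR QL adjusted p 0.00329), and PAK1, a kinase downstream of small GTPases, from 18.7 ± 1.49 to 14.2 ± 0.827 CPM (-0.39 ± 0.06, adjusted p 3.90e-04). The EGF receptor gene EGFR, at 128 CPM without and 105 CPM with coculture, was lower by 0.29 on the log2 scale (-0.29 ± 0.07, adjusted p 0.00830), opposite to FAM83A. The main fit had 2801 of all tested genes higher and 2478 lower, and these numbers also depend on the setting. With the batch as a block 5 of the list were higher, where 3478 of all tested genes were. Without cocultivated replicate 1 also 5 were higher, where 3041 of all were. With library totals 1 was higher and 6 lower, where 2216 and 3555 of all were. From TPM values 1 was higher, where 1733 (0.1 added) or 1740 (1 added) of all were.

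Of 12 tested spindle and mitotic partners of FAM83D, 11 had a log2 fold change under 0. Their median was -0.13, beside -0.01 over all tested genes. As lower 3 passed and as higher none, where 15.8% and 17.9% of all tested genes did. Genes of a list can vary together, so these counts are a description. FAM83D had a lower log2 fold change than each of the 12, a difference that was not tested. The chromokinesin KIF22 went from 61.2 ± 3.23 to 51.0 ± 3.89 CPM (-0.26 ± 0.06, edgeR QL adjusted p 0.00302), and the cyclin CCNB1 from 163 ± 9.39 to 141 ± 13.9 CPM (-0.20 ± 0.07, adjusted p 0.0325). HMMR, the spindle protein that FAM83D binds, was at -0.24 ± 0.13 (adjusted p 0.179). With the batch as a block 7 were lower, where 3487 of all tested genes were, against 2478 in the main fit. With library totals 5 were lower, where 3555 of all tested genes were. The number of mitotic genes lower was 1 without cocultivated replicate 1 or non-cocultivated replicate 3, 4 or 5. CCNB1 did not pass without any of these libraries, without cocultivated replicate 5 (edgeR QL adjusted p 0.0544) or without non-cocultivated replicate 2 (0.0681). With 1 library left out at a time, 2057 to 2675 of all tested genes were lower.

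Around FAM83G, 2 of 16 genes of BMP and Wnt signalling were higher and 4 lower, with a median of -0.02. The shares over all tested genes were 17.9% higher and 15.8% lower. ID2, a BMP-induced inhibitor of transcription factors, went from 43.7 ± 2.00 to 16.9 ± 1.56 CPM (-1.37 ± 0.06, edgeR QL adjusted p 1.82e-08), while ID1 was at 0.50 ± 0.07 (adjusted p 1.04e-04). GSK3B, a kinase of the beta-catenin destruction complex, went from 177 ± 9.78 to 238 ± 11.5 CPM (0.43 ± 0.05, adjusted p 1.73e-05). ID3 was lower, like ID2, at -0.57 ± 0.18 (edgeR QL adjusted p 0.0290), with groups that overlapped. SMAD1 was at -0.19 ± 0.04 (adjusted p 0.00303) and SMAD5 at -0.13 ± 0.04 (adjusted p 0.0383). Without cocultivated replicate 5, or without non-cocultivated replicate 2, 3 or 4, the number lower was 2. In these fits 2057 to 2241 of all tested genes were lower, against 2478 in the main fit.

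FAM83H binds keratin filaments. Of 9 tested keratins and FAM83H partners, 4 were higher and 3 lower, with a median of -0.04. Over all tested genes, 17.9% were higher and 15.8% lower. Of the simple keratins, KRT8 fell from 112 ± 5.35 to 58.1 ± 5.14 CPM (-0.94 ± 0.06, edgeR QL adjusted p 1.58e-07), opposite to FAM83H. KRT18 (-0.61 ± 0.08, adjusted p 8.38e-05) and KRT19 (-0.21 ± 0.05, adjusted p 0.00494) fell too. KRT7, also a simple keratin, rose (1.03 ± 0.17, adjusted p 5.26e-04). KRT81 went from 121 ± 20.5 to 991 ± 181 CPM (3.04 ± 0.15, adjusted p 2.42e-08). KRT80 and the FAM83H partner NCK2 (0.34 ± 0.05, adjusted p 2.11e-04) were higher as well. SON, a nuclear speckle protein that FAM83H is known to work with, was at -0.10 ± 0.07 (adjusted p 0.320).

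**Figure D5:**
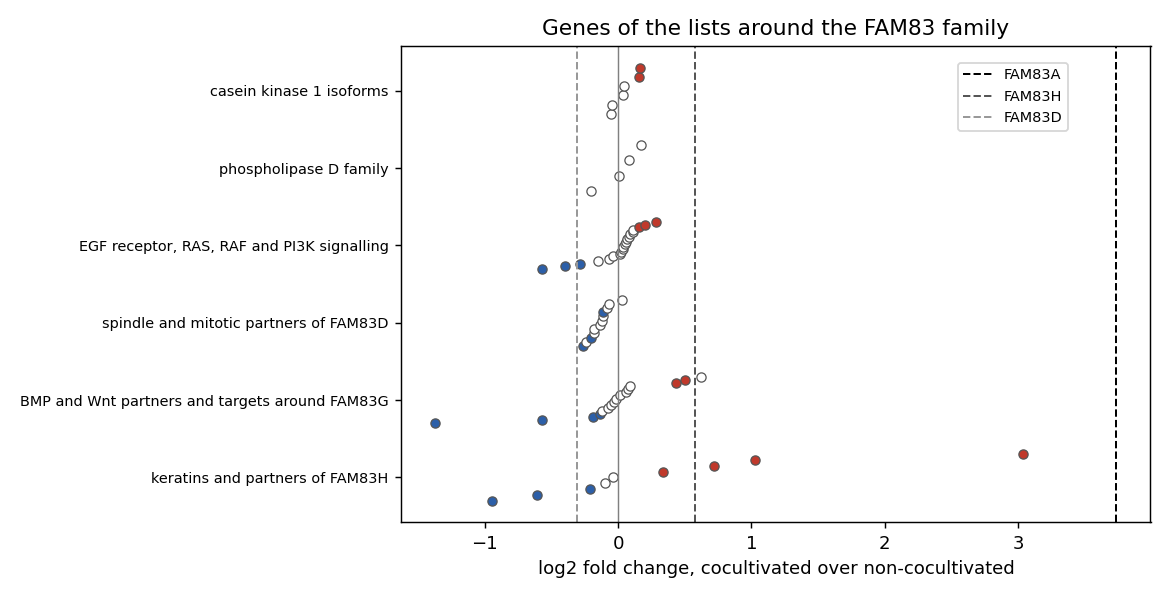
Log2 fold change (horizontal axis) of every tested gene of the 6 lists around the family, filled red (higher) or blue (lower) where the edgeR adjusted p is under 0.05 and open otherwise; the vertical spread within a list only separates points, and dashed lines mark FAM83A, FAM83H and FAM83D. FAM83A lies beyond all genes of these lists, of which KRT81 at 3.04 comes nearest, and FAM83D lies to the left of all 12 mitotic genes.

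As a check of the label, all 8 epithelial markers passed the filter, and their summed level was 1289 to 1389 CPM without and 1081 to 1175 CPM with coculture. The filter is a low bar, since CLDN7 passed it and never exceeded 0.261 CPM. Of the 8, 6 were lower and 1, CLDN4, was higher, where 15.8% and 17.9% of all tested genes were. Of 12 adipocyte markers, ADIPOQ, LEP, CIDEA and LPL never exceeded 3 counts in any library, and ADIPOQ was at 0 in every cocultivated one. The summed level of the 12 was 195 to 218 CPM without and 232 to 341 CPM with coculture. This rise was not shared by the set. FABP4, the term that rose most, held 21.87 to 45.04 CPM without and 98.5 to 220.2 CPM with coculture. PPARG, the largest term without coculture, fell from 124.6 to 128.3 CPM to 84.58 to 89.86 CPM. Of 6 tested adipocyte markers, 2 were higher, FABP4 (2.46 on the log2 scale, edgeR QL adjusted p 7.21e-06) and LIPE (0.69, adjusted p 0.00145). Another 2 were lower, PPARG (-0.49, adjusted p 6.55e-07) and CIDEC (-0.88, adjusted p 0.00585). PLIN1 and GPAM did not pass. CD36, a fatty acid transporter that was not tested, held 0 to 3 counts without and 7 to 27 with coculture. The summed levels without and with coculture were 10.8 to 12.9 and 5.12 to 6.78 CPM for 10 stromal, 29.4 to 37.4 and 42.0 to 49.8 CPM for 10 blood cell and 31.7 to 43.6 and 18.8 to 26.01 CPM for 6 endothelial markers. At 3 counts or fewer in all libraries were 2, 7 and 1 of these markers. The blood cell sum was almost all CD68, at 29.2 to 37.1 CPM without and 41.8 to 49.4 CPM with coculture. KDR, the largest endothelial term without coculture, held 21.7 to 31.4 and 6.02 to 13.8 CPM. A part of RNA from other cells in the change of FAM83A, FAM83D or FAM83H was not tested beyond these levels.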

How the data were processed

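RNA was extracted on columns and 500 ng per library went into a stranded, ligation-based mRNA kit for a NextSeq550, per the labels' protocols. RSEM 1.3.3, Bowtie2 2.4.4 and bcl2fastq are listed, per the submitters' processing notes. Neither the genome build nor the annotation or strandedness option of that run is stated in the labels. Per the file headers, the deposited tables hold expected counts, TPM and transcript lengths per gene, and 83.8% of the counts were whole within 0.005. Expected counts were rounded, filtered (filterByExpr, minimum count 10, total 15), TMM-scaled (factors 0.953 to 1.04) and tested with edgeR 4.0.16 in R 4.3.3 (quasi-likelihood F test, threshold 0.05), checked on simulated data. SE is the log2 fold change over the square root of F. No 2 libraries of a group were duplicates (chi-square per degree of freedom 4.58 to 48.3). The labels give the numbers as shared batches, so they pair libraries; deviations of paired libraries correlated across genes at 0.329, -0.019, 0.073, 0.104 and 0.281. Marker sums use the library total. Alternatives were other scalings and filters, unrounded counts, DESeq2 1.42.0, limma 3.58.1 (voom, and TPM with 0.1 or 1 added), the batch as a block and each library left out. Members and lists were chosen with earlier results of these data known, and neighbours after seeing the fit. Named were the 8 members, antisense genes, the 2 genes of each list with the smallest p and the 5 nearest to FAM83A; the other genes were named after their values were seen. The value of 1 gene is not reported here.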

Additional observations from a re-analysis of the deposited data

Results flagged for a closer look

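Dixon's test at 95% was run on CPM in 51 groups of 5 libraries, among the members and named genes. In 5 of these groups, 1 library lay far from the other 4. Chance gives about 1 in 20 for independent groups. These groups share the same 10 libraries, and some hold few counts. IL1B and HMOX1 were also chosen by their levels in these libraries, so the 5 are a description. The highest level of IL1B, 280 CPM in cocultivated replicate 5, stood above 182 CPM in the next library. HMOX1 was at 17.6 CPM in non-cocultivated replicate 5, next to 13.4. KIF22 was at 44.3 CPM in cocultivated replicate 5, under 51.6 in the next. CCNB1 was at 146 CPM in non-cocultivated replicate 1, under 164. FAM83C was at 0.104 CPM in cocultivated replicate 3, next to 0.0445, on 4 counts. On the CPM scale FAM83A, FAM83D and FAM83H had no such library in either group. TPM was not examined in this way. There FAM83D in cocultivated replicate 5, at 33.74, stood farther from the next library, at 44.06, than in CPM (59.1 and 66.3).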

How the results depend on the processing

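The values of the members are given as ranges only, since the family was chosen on the difference of FAM83A in these libraries. Leaving out 1 library at a time gave log2 fold changes of 3.52 to 3.86 for FAM83A, 0.52 to 0.62 for FAM83H and -0.35 to -0.24 for FAM83D. The other alternatives gave 1.28 to 3.75, 0.49 to 0.58 and -0.39 to -0.31, the lowest value of FAM83A on the log2(TPM + 1) scale. With the batch as a replicate block 3478 genes were higher and 3487 lower, against 2801 and 2478 in the main fit. FAM83A was then at 3.72, FAM83H at 0.58 and FAM83D at -0.31. Of the 20 genes recomputed one by one, the block changed the calls of PLD1 and PLD3, and in the lists it moved the mitotic genes from 3 to 7 lower and the EGF receptor list from 3 to 5 higher. From TPM the genes higher numbered 1733 (0.1 added) and 1740 (1 added), with 2956 and 2975 lower; the cause was not tested. No log2 fold change of these 20 genes took the opposite sign. A call at the threshold was lost in 12 values (CSNK1A1, CSNK1E and CCNB1) and gained in 3 (PLD1 and PLD3). Those that stayed are not counted, since the 20 genes include FAM83A, FAM83D, FAM83H and the genes nearest to FAM83A. Depth limits FAM83B, FAM83C, FAM83E, FAM83F and FAM83G, at 9 counts or fewer per library.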
